A study of Mus musculus with 8 samples.

Results

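The 64 genes described here are the axon guidance ligands and receptors of Neuro2A (N2A) cells, a mouse neuroblastoma line, taken from a table of 16974 genes. They were chosen by symbol alone: the semaphorins, ephrins, netrins and Slits as ligands (33 genes), and the plexins, neuropilins, Eph receptors, Unc5 receptors, Dcc, Neo1 and the Robo receptors as receptors (31 genes). The drug, HU210, activates the cannabinoid 1 receptor (CB1R), which N2A cells carry and whose stimulation is known to increase neurite outgrowth (NOG). There were 8 libraries of mRNA, 1 for each combination of treatment and hour. In 4 of them the cells had received 2 uM HU210, for 2 h in the shortest and 8 h in the longest with 4 h and 6 h between, and in the other 4 drug-free DMSO for the same times; all cells, controls included, had first been held in serum-free medium with albumin. Each library came from a pool of several experiments, so the spread between experiments is not in the data. The question of each pair is what HU210 changed at that hour.

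Axon guidance cues steer a growing neurite by attraction or repulsion. Secreted class 3 semaphorins bind a neuropilin, which has a plexin as its signalling partner, whereas membrane-bound semaphorins of classes 4, 6 and 7 mostly bind plexins directly. Ephrins sit on the membrane and bind Eph receptor tyrosine kinases on the next cell, and the cell that carries the ephrin can be signalled to in return. Netrin 1 attracts through Dcc and repels through Unc5 receptors, Neo1 is a relative of Dcc that also binds repulsive guidance molecules, and Slits repel through Robo receptors. Growth cones of sympathetic neurons, the lineage of neuroblastoma, respond to semaphorins in particular.

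Expression is given as FPKM, fragments per kilobase of transcript and per mapped fragments of the library, a level per unit of gene length. A change is log2[(FPKM in HU210 + 1)/(FPKM in DMSO + 1)], and it is counted as past 1.5-fold at that cutoff in either direction. With 1 library a condition, a change at 1 hour has no error and no p-value. The libraries had the markers of their label: all 8 of the 9 listed sympathetic neuroblastoma markers that were found had a median of at least 1 FPKM, with Hand2 at 70.5 to 108, and Stmn2, a neuronal growth cone protein, was at 129 to 157. Neurofilaments Nefl and Nefm were below 1. Markers of other cells stayed low, with summed levels of 0.216 to 0.768 FPKM for astrocytes, 0.228 to 0.468 for leukocytes, 1.31 to 1.53 for fibroblasts, 0.982 to 1.38 for endothelial cells and 1.32 to 2.23 for Schwann cells. Cnr1, the gene of CB1R, was listed at 15.5 to 27.9 FPKM in all 8 libraries. With each hour set against its own DMSO library, the 4 h pair stood apart. There 358 genes of 16557 were past 1.5-fold upward and 1070 downward. The 2 h pair had 114 and 220 of 16499, the 6 h pair 259 and 137 of 16372 and the 8 h pair 190 and 103 of 16385. With the mean of the 4 DMSO libraries as reference, most of this excess at 4 h was gone. Of 15894 genes, 70 were then higher and 201 lower at 4 h, against 106 and 175 at 2 h and 163 and 74 at 6 h. The part of the single 4 h control in the excess was not tested. No counting error is given for an FPKM, since reads per gene were not analysed here.

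Of the 64 genes, 29 had a mean of at least 1 FPKM over the libraries that list them, and 12 had a mean of at least 10. The other 35 had a mean below 1, the highest of them 0.817 for Sema6c. In 18 genes no library reached 0.1 FPKM. Dcc and Epha6 were listed at 0 in all 8 libraries, and Robo1 at 0 in the only pair that lists it, that of 6 h. The table lists 56 of the genes at all 4 hours. Their relatives Efnb1, Epha3, Epha4, Ephb6, Ntn3, Robo4, Sema3c and Sema5a were not analysed here. As these are bulk libraries, a lower level can mean fewer cells with the RNA or less RNA per cell, and these cannot be told apart.

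**Figure D1:**
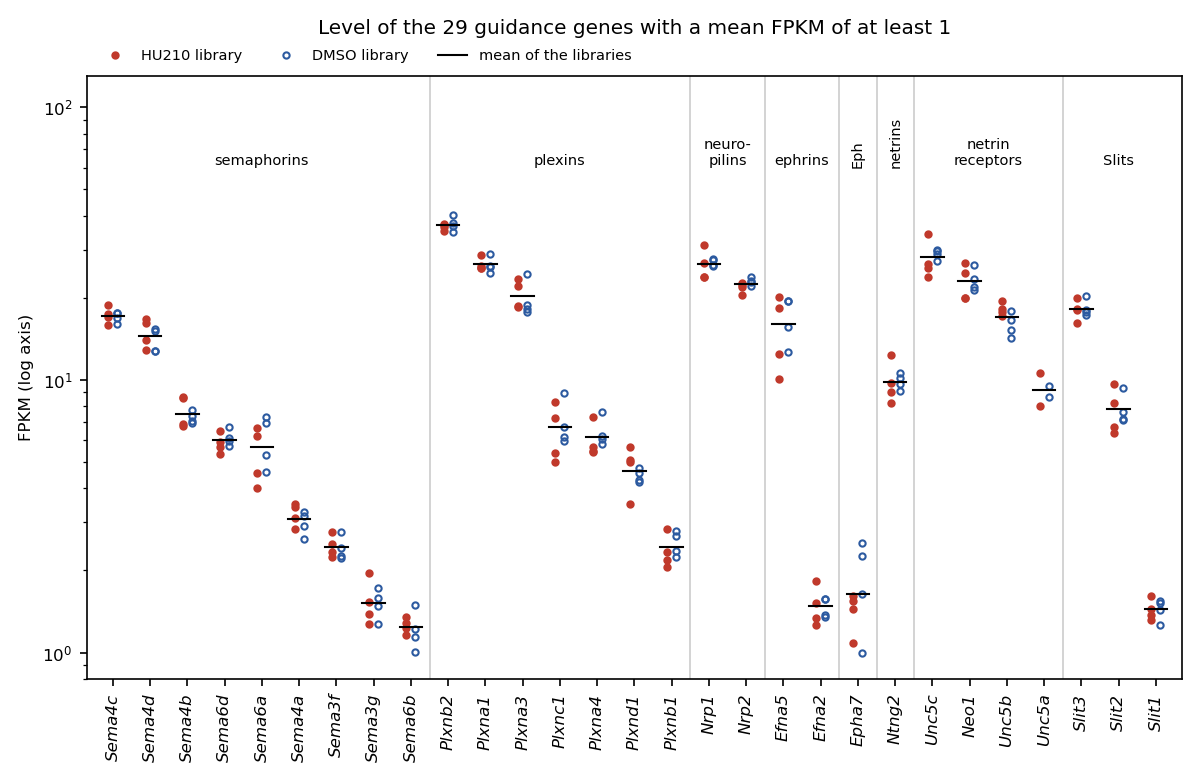
FPKM on a log axis of the 29 guidance genes with a mean of at least 1 FPKM, grouped by family, with 1 filled point for each HU210 library, 1 open point for each DMSO library and a line at the mean. Plexins, neuropilins and the netrin receptors Unc5c, Neo1 and Unc5b hold the highest levels, from Plxnb2 at 36.9 FPKM downward, while 1 Eph receptor, Epha7, and no Robo receptor is among them.

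Among the ligands, the semaphorins had 9 of 18 genes at a mean of at least 1 FPKM, and their summed level ran from 56.3 FPKM in DMSO at 2 h to 65.5 in HU210 at 8 h. Class 4 led. Sema4c was at 17.1 ± 0.91 FPKM (SD over n = 8 libraries), between 15.9 and 18.8. Sema4d, the membrane-bound ligand of plexin B1, was at 14.5 ± 1.61, Sema4b at 7.51 ± 0.758 and Sema4a at 3.10 ± 0.302. Of class 6, whose members bind A-type plexins, Sema6d was at 6.00 ± 0.444, Sema6a at 5.69 ± 1.25 and Sema6b at 1.24 ± 0.149. The secreted class 3 semaphorins analysed were scarce: Sema3f was at 2.44 ± 0.225 and Sema3g at 1.53 ± 0.233. Sema3a, the classical collapsing factor for sensory and sympathetic growth cones, did not exceed 0.0048 FPKM in any library, and Sema3d and Sema3e stayed at or below 0.0035. Sema7a, the lipid-anchored ligand of plexin C1, stayed between 0.118 and 0.186.

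Plexins, the main semaphorin receptors, formed the most abundant family, with 7 of 9 genes at a mean of at least 1 FPKM and a summed level of 97.0 to 113. Plxnb2 stood first of all 64 genes at 36.9 ± 1.65 FPKM, and its lowest library, at 34.9, lay above every library of the gene next to it in the order, Unc5c. Plxna1 was at 26.5 ± 1.55 and Plxna3 at 20.2 ± 2.64. The lower plexins were Plxnc1 at 6.72 ± 1.39, Plxna4 at 6.20 ± 0.825, Plxnd1, the receptor of Sema3e, at 4.64 ± 0.655, and Plxnb1, the receptor of Sema4d, at 2.43 ± 0.291. Plxna2 and Plxnb3 did not exceed 0.0215 FPKM. The A-type plexins were thus split, with 3 expressed and 1 near 0. Both neuropilins, which bind class 3 semaphorins and also VEGF, were abundant: Nrp1 at 26.7 ± 2.31 and Nrp2 at 22.4 ± 1.03 FPKM.

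The ephrins analysed were carried mainly by 1 gene. Efna5, an ephrin held on the membrane by a lipid anchor, was at 16.0 ± 3.90 FPKM, the largest SD of all 64 genes, and Efna2 at 1.48 ± 0.184. The other 5 ephrins, Efna1, Efna3, Efna4, Efnb2 and Efnb3, ranged from 0.0785 to 0.783 FPKM over all libraries. Only 1 of 11 Eph receptors, Epha7, reached a mean of 1 FPKM, with 1.64 ± 0.526, and the summed level of the family was 2.99 to 4.57. Epha8 and Epha10 were at means of 0.646 and 0.727, and Ephb4, listed at 2 h alone, at 0.729. Every Eph receptor analysed was thus below 3 FPKM in every library, while Efna5 was at 10.1 or more.

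Netrin receptors were abundant and the classical netrins analysed were not. Unc5c was at 28.3 ± 3.20 FPKM, Neo1 at 23.1 ± 2.73 and Unc5b at 17.1 ± 1.70. Unc5a was listed at 4 h and 8 h alone, with 10.6 FPKM in HU210 and 8.68 in DMSO at 4 h, and 8.05 and 9.53 at 8 h. Unc5d did not exceed 0.0290 and Dcc was listed at 0. Of the netrins, Ntn1 ranged from 0.0198 to 0.0609 FPKM, Ntn4 from 0 to 0.0902 and Ntn5 from 0 to 0.0250. Netrin G2 (Ntng2), a lipid-anchored relative that does not use Dcc or Unc5 receptors, was at 9.86 ± 1.23, and Ntng1 did not exceed 0.0589.

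Slits and Robo receptors showed the opposite arrangement, with ligands present and the receptors analysed near 0. Slit3 was at 18.2 ± 1.39 FPKM, Slit2 at 7.79 ± 1.20 and Slit1 at 1.44 ± 0.12, and their sum ran from 25.7 to 31.3. Robo2 ranged from 0.0061 to 0.0591 FPKM and Robo3 from 0.0197 to 0.0395.

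In the order of means from Plxnb2 down to Sema6b, neighbours overlapped in their range over the libraries everywhere except at 3 places. These were below Plxnb2, between Sema4d and Ntng2, and between Plxnd1 and Sema4a. Efna5, which ranged widely, still overlapped Ntng2 and Unc5a below that gap. Of the 12 genes with a mean of at least 10 FPKM, from Plxnb2 to Sema4d, 8 were receptors (3 plexins, both neuropilins, Unc5b, Unc5c and Neo1) and 4 were ligands (Slit3, Sema4c, Efna5 and Sema4d).

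At single hours, few guidance genes passed 1.5-fold. At 2 h 0 of 60 were higher and 0 lower, where 0.691% of all genes were higher and 1.33% lower. The 6 h pair had 0 of 60 in each direction, where 1.58% of all genes were higher and 0.837% lower. At 4 h, 2 of 60 were lower, Efna5 and Plxnc1, and 0 higher, against 6.46% of all genes lower and 2.16% higher. At 8 h, 1 of 59, Epha7, was lower and 0 higher, against 0.629% and 1.16% of all genes. At 1.3-fold, 6 of 60 were lower at 4 h (Efna5, Epha7, Neo1, Plxnc1, Sema6a and Slit2), against 14.5% of all genes. Over all listed genes, the share of guidance genes lower at 4 h was thus no larger than that of the whole table at either cutoff. Many of these guidance genes lie below 1 FPKM, where this scale understates changes. With at least 1 FPKM in both libraries, 2 of 29 were lower past 1.5-fold at 4 h, against 950 of 11177 genes. At 8 h it was 1 of 29, against 49 of 11231. At 1.3-fold this filter was not applied.

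Efna5 (ENSMUSG00000048915, chr17:62953533-63230666 on the minus strand of mm9) had 12.4, 10.1, 18.3 and 20.2 FPKM in the HU210 libraries, in the order of the hours, and 12.7, 19.5, 15.6 and 19.5 in the DMSO libraries. HU210 at 4 h was the lowest of the 8 libraries and the matched DMSO library was among the highest, while at 2 h both were low and at 8 h both were high. The log2 change was -0.89 at 4 h and -0.03, 0.21 and 0.04 at the other hours. At 4 h the change exceeded the range of DMSO over the hours, which was 0.59 in log2 units. With the mean DMSO level as reference it was -0.67, and it was -0.60 once the trend of all genes with GC content and length was removed.

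Plxnc1 (ENSMUSG00000074785, chr10:94253617-94407212, minus strand), the receptor of Sema7a, had 5.40, 4.99, 8.29 and 7.25 FPKM in HU210 and 5.98, 8.98, 6.16 and 6.72 in DMSO. Here too the 4 h pair held both the lowest HU210 and the highest DMSO library, and the 6 h pair lay the other way round. The log2 change was -0.13, -0.74, 0.38 and 0.10 at the 4 hours. At 4 h it fell short of 1.5-fold with the mean DMSO level as reference, at -0.39, and with the GC and length trend removed, with -0.51.

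Epha7 (ENSMUSG00000028289, chr4:28740281-28894649, plus strand) was the only Eph receptor analysed with a mean above 1 FPKM. It had 1.45, 1.61, 1.55 and 1.08 FPKM in HU210 and 0.999, 2.53, 1.63 and 2.26 in DMSO. The HU210 library of 8 h was low and its DMSO partner high, but the DMSO library of 2 h was lower still. The log2 change was 0.29, -0.43, -0.05 and -0.65. At 8 h it lay within the range of the DMSO libraries, 0.82 in log2 units, the widest of the 28 genes, and against their mean it was -0.42, short of 1.5-fold.

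The 250 bases before the start of these 3 genes are shown because they are the guidance genes past the cutoff. They were read from RefSeq windows of GRCm38.p6 and placed on mm9 by an exact match, and they run 5′ to 3′ on the strand of the gene. Capitals mark the GC box, GGGCGG or its reverse complement CCGCCC, the letters that Sp-family factors are known to bind.
Efna5, mm9 chr17:63230667-63230916, minus strand: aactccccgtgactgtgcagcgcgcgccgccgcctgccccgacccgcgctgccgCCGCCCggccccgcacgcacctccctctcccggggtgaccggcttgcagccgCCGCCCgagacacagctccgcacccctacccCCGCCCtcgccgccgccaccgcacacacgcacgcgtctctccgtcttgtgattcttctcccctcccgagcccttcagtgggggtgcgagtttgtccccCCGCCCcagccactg
Plxnc1, mm9 chr10:94407480-94407729, minus strand: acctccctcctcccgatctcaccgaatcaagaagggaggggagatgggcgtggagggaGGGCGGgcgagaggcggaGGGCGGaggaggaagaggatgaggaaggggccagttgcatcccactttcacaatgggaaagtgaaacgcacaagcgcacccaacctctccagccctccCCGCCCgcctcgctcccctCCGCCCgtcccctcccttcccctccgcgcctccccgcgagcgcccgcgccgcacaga
Epha7, mm9 chr4:28740031-28740280, plus strand: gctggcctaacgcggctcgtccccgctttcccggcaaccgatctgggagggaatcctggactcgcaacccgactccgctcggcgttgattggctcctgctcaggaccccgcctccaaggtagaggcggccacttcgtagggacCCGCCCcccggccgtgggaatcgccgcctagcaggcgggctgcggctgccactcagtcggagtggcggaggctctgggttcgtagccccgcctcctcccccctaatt
The Efna5 window held 4 GC boxes and was 74.8% G and C, that of Plxnc1 held 4 and was 68.8%, and that of Epha7 held 1 and was 69.2%. A second Epha7 window, mm9 chr4:28740045-28740294, overlaps the gene model and is not printed. It held 1 GC box and was 66.8% G and C. The Plxnc1 window lies upstream of the end of its gene model on mm9, since the RefSeq start lies further out. Windows were found for 23 of the 28 guidance genes in the model fits, 34 windows in all, some genes having several starts. A GC box stood in 28 of the 34, against 32.7% of 32851 windows of the same length over all genes. The median G and C content was 65.4% against 52.4%. The 34 windows belong to genes with a mean of at least 1 FPKM, while the 32851 include genes of any level. These shares are thus not matched for expression, several starts of a gene count separately, and a share over expressed genes was not taken. None of the 34 held TGACGTCA (the cyclic AMP response element), TTCNNNGAA (the STAT element) or GCGTGGGCG (the EGR element), each sought on both strands in the whole windows, which run past the start. Of all windows 1.79%, 8.3% and 0.612% held them. A match of letters is a description of the window and not of binding.

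**Figure D2:**
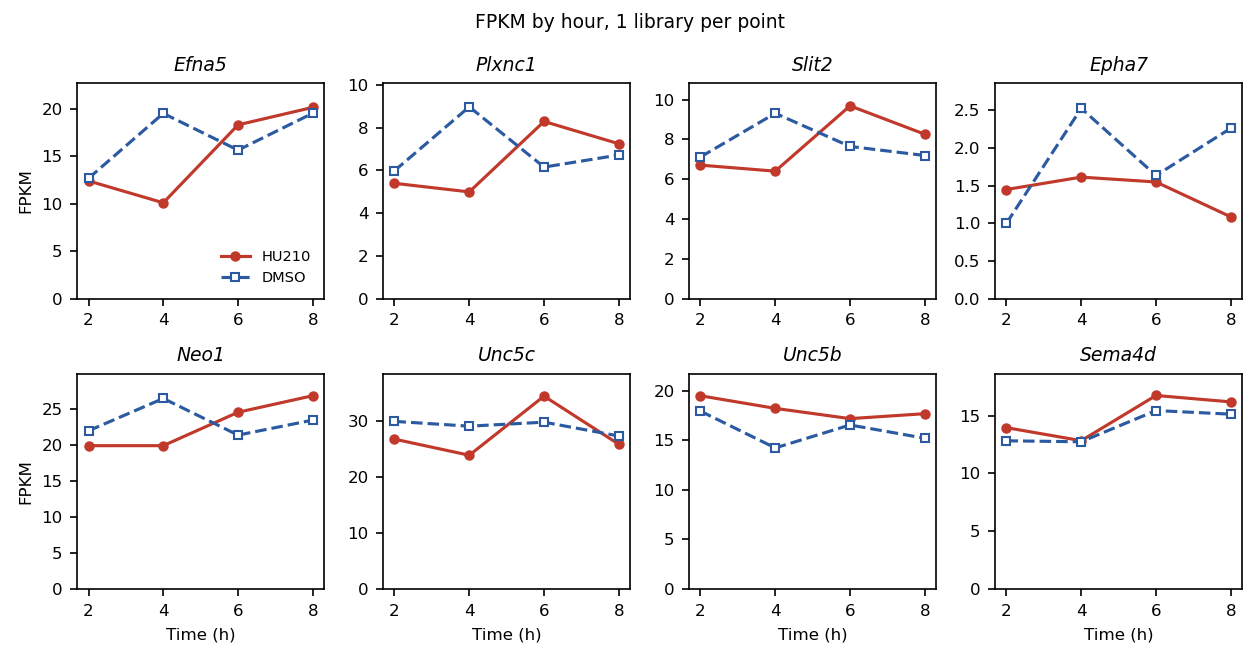
FPKM against time for 8 guidance genes, 1 library per point, with HU210 as filled circles on a solid line and DMSO as open squares on a dashed line; each axis starts at 0. Efna5, Plxnc1, Slit2 and Neo1 have DMSO above HU210 at 4 h and HU210 above DMSO at 6 h, whereas Unc5b and Sema4d have HU210 above DMSO at all 4 hours.

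A total of 28 guidance genes were listed in all 8 libraries with a mean of at least 1 FPKM and entered the model fits, as did 11311 genes in all. The median log2 change of the 28 was -0.037, -0.091, 0.081 and -0.0073 from the first hour to the last. For all 11311 genes it was -0.051, -0.081, 0.062 and 0.044. The guidance genes thus lay on the same side as the whole table at 2 h, 4 h and 6 h. At 8 h their median lay nearer to 0 and on the opposite side of it from that of all genes. A change that has the sign of its pair's shift and is smaller turns sign when the pair is centred on its median, as does that of Unc5b at 6 h. Of the 28, 16, 16, 9 and 14 were lower with HU210 at the 4 hours, against 64.0%, 59.0%, 34.4% and 37.4% of all genes. The 15 ligands had medians of -0.03, 0.01, 0.11 and 0.04 and the 13 receptors -0.05, -0.17, 0.05 and -0.08. At 4 h, 9 of 13 receptors and 7 of 15 ligands were lower.

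The direction at 4 h varied with the base composition of the transcript. In 9 of the 28 genes the longest coding transcript had under 50% G and C: Epha7, Unc5c, Efna5, Nrp1, Plxnc1, Slit2, Sema6a, Neo1 and Sema6d. All 9 were lower with HU210 at 4 h, by -0.89 to -0.20 with a median of -0.43. In the 19 others the change was -0.37 to 0.34 with a median of 0.02, and 12 were higher. At 6 h, 8 of the 9 were higher, Epha7 being the exception, with a median of 0.20 against 0.01 in the others. Genes of the whole table moved with composition too: at 4 h the median was -0.25 in 5009 genes under 50% and 0.075 in 5581 genes from 50% up, and 81.5% and 39.1% of them were lower. At 6 h these medians were 0.12 and 0.023, and 22.4% and 43.1% of the genes were lower. Spearman's rho between change and GC content at 4 h was 0.71 over the 28 guidance genes and 0.53 over 10590 genes, which share the same pair of libraries. Once the trend of all genes with GC content and length was removed, the median of the 9 at 4 h was -0.20 and at 6 h 0.10. At 4 h Nrp1 and Unc5c then turned positive, at 0.11 and 0.09, and Epha7 was at -0.040. The part of base composition in the changes of single genes was not tested, and the 50% boundary was chosen after the values were seen.

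**Figure D3:**
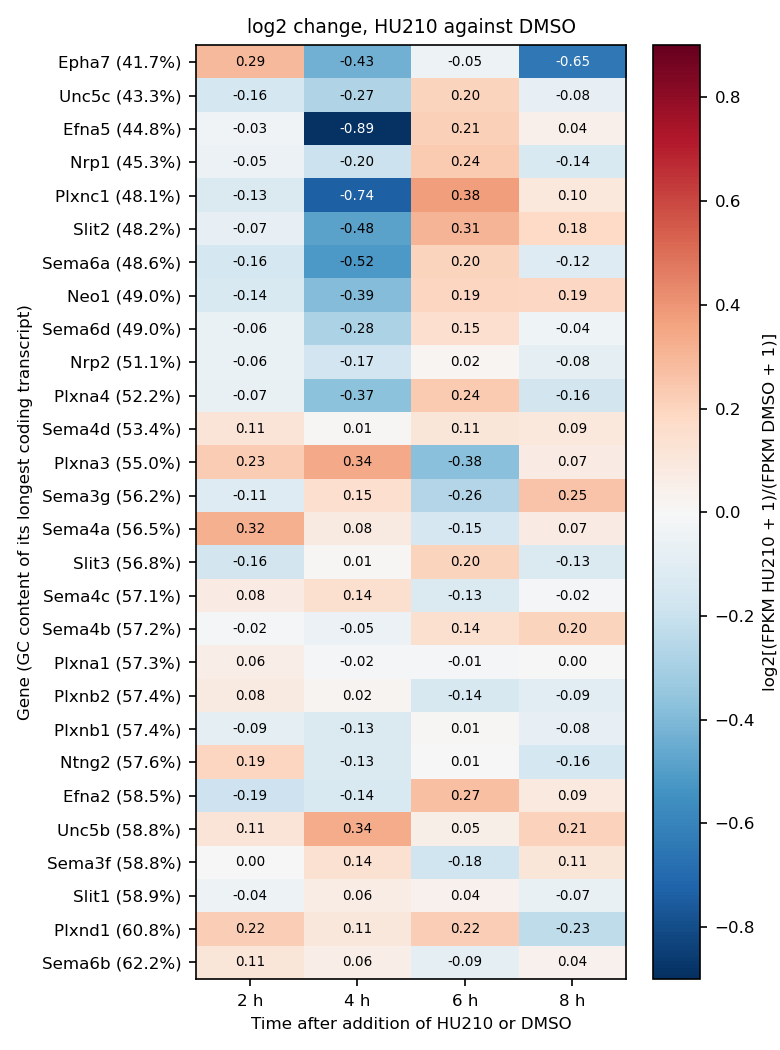
log2 change with HU210 of the 28 guidance genes at each hour, ordered by the GC content of the longest coding transcript, lowest at the top; blue is lower and red higher in HU210. At 4 h the 9 genes under 50% are all blue, from -0.89 in Efna5 to -0.20 in Nrp1, and at 6 h all of them but Epha7 are red.

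Slit2, a secreted Slit, showed the turn between 4 h and 6 h most plainly after Efna5 and Plxnc1. It had 6.71, 6.40, 9.69 and 8.26 FPKM in HU210 and 7.12, 9.31, 7.65 and 7.19 in DMSO, with log2 changes of -0.07, -0.48, 0.31 and 0.18. Neo1 had 19.9, 19.9, 24.6 and 26.9 FPKM in HU210 and 22.0, 26.5, 21.4 and 23.5 in DMSO, with changes of -0.14, -0.39, 0.19 and 0.19. Both had their 2 lowest libraries in HU210 at 2 h and 4 h. Sema6a, a membrane-bound ligand of A-type plexins, had 4.01, 4.54, 6.23 and 6.65 FPKM in HU210 and 4.58, 6.93, 5.29 and 7.30 in DMSO, and Unc5c had 26.7, 23.8, 34.4 and 25.8 in HU210 and 29.9, 29.0, 29.7 and 27.3 in DMSO. In Sema6a the libraries of both treatments overlapped over most of their range, while in Unc5c the DMSO libraries lay close together and HU210 lay below all 4 of them except at 6 h. In all, 14 of the 28 guidance genes were lower at 4 h and higher at 6 h, where 47.9% of all genes were.

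Not every gene went this way. Plxna3 had 22.1, 23.4, 18.6 and 18.7 FPKM in HU210 and 18.8, 18.3, 24.5 and 17.7 in DMSO, so that it was higher with HU210 at 4 h (0.34) and lower at 6 h (-0.38). Its highest library of each treatment was HU210 at 4 h and DMSO at 6 h. Over the 28 genes, HU210 at 4 h was the lowest HU210 library in 10 (35.6% of all genes), and DMSO at 6 h was the highest DMSO library in 11 (18.4% of all genes). Plxnb2, Plxna1 and Sema4c, among the abundant genes, changed by no more than 0.14 in either direction on the log2 scale at any hour. Plxna1 changed least, by 0.063, -0.020, -0.0092 and 0.0023. Plxnd1 was at 5.68, 4.98, 5.09 and 3.51 FPKM in HU210 and 4.74, 4.56, 4.24 and 4.28 in DMSO, above every DMSO library until 6 h and below every one at 8 h.

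In the remaining plexins and in Nrp2 the ranges of both treatments overlapped. Plxnb2 had 37.0, 37.2, 36.3 and 35.3 FPKM in HU210 and 34.9, 36.7, 40.3 and 37.7 in DMSO, and Nrp2 had 21.9, 20.4, 22.3 and 22.6 in HU210 and 22.8, 23.1, 22.0 and 23.9 in DMSO. In Plxnb2 the lowest and the highest library were both DMSO, and in Nrp2 HU210 lay below all 4 DMSO libraries at 2 h and 4 h and among them later. Plxna1 had 25.7, 25.7, 28.8 and 26.1 FPKM in HU210 and 24.6, 26.1, 29.0 and 26.1 in DMSO, so that both treatments were highest at 6 h. Plxna4, a receptor of class 6 semaphorins, had 5.49, 5.67, 7.32 and 5.44 in HU210 and 5.80, 7.60, 6.06 and 6.21 in DMSO. Its 4 h and 6 h pairs lay opposite ways, as in Plxnc1, with changes of -0.37 and 0.24. Plxnb1 had 2.06, 2.34, 2.83 and 2.18 FPKM in HU210 and 2.25, 2.66, 2.79 and 2.35 in DMSO, again highest at 6 h in both.

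Among the ligands, Slit3 had 18.1, 18.2, 20.03 and 16.1 FPKM in HU210 and 20.4, 18.1, 17.3 and 17.7 in DMSO. Slit1 had 1.45, 1.37, 1.62 and 1.32 in HU210 and 1.52, 1.27, 1.55 and 1.43 in DMSO. Their changes at 4 h, 0.0095 and 0.064, were unlike the -0.48 of Slit2, and the libraries of both treatments overlapped in each. Sema4c had 17.0, 18.8, 15.9 and 17.4 FPKM in HU210 and 16.1, 16.9, 17.5 and 17.6 in DMSO, with HU210 at 4 h the highest library. Sema4a had 3.50, 3.41, 2.85 and 3.11 in HU210 and 2.60, 3.16, 3.27 and 2.90 in DMSO, and its change of 0.32 at 2 h was the highest of the 28 genes at that hour. Sema6d, a ligand of plexin A1, had 5.68, 5.33, 6.501 and 5.92 FPKM in HU210 and 5.97, 6.71, 5.74 and 6.11 in DMSO, with the 4 h and 6 h pairs opposite. Sema6b had 1.16, 1.23, 1.35 and 1.29 in HU210 and 1.002, 1.14, 1.498 and 1.23 in DMSO, and the treatments overlapped.

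The secreted semaphorins present had changes of 0.26 or less in size. Sema3f had 2.24, 2.77, 2.33 and 2.51 FPKM in HU210 and 2.23, 2.43, 2.77 and 2.25 in DMSO, and Sema3g had 1.39, 1.53, 1.27 and 1.96 in HU210 and 1.58, 1.28, 1.73 and 1.48 in DMSO. In Sema3g the change of 0.25 at 8 h was the highest of the 28 genes at that hour. Ntng2 had 12.3, 8.23, 9.74 and 9.01 FPKM in HU210 and 10.6, 9.11, 9.69 and 10.2 in DMSO, and its HU210 libraries spanned both the highest and the lowest of all 8. Efna2 had 1.26, 1.34, 1.83 and 1.52 in HU210 and 1.58, 1.58, 1.35 and 1.37 in DMSO. In Efna2 the 4 DMSO libraries were at 1.58 in both earlier and at 1.35 and 1.37 in both later hours, and at each hour HU210 lay below its DMSO partner early and above it late.

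**Figure D4:**
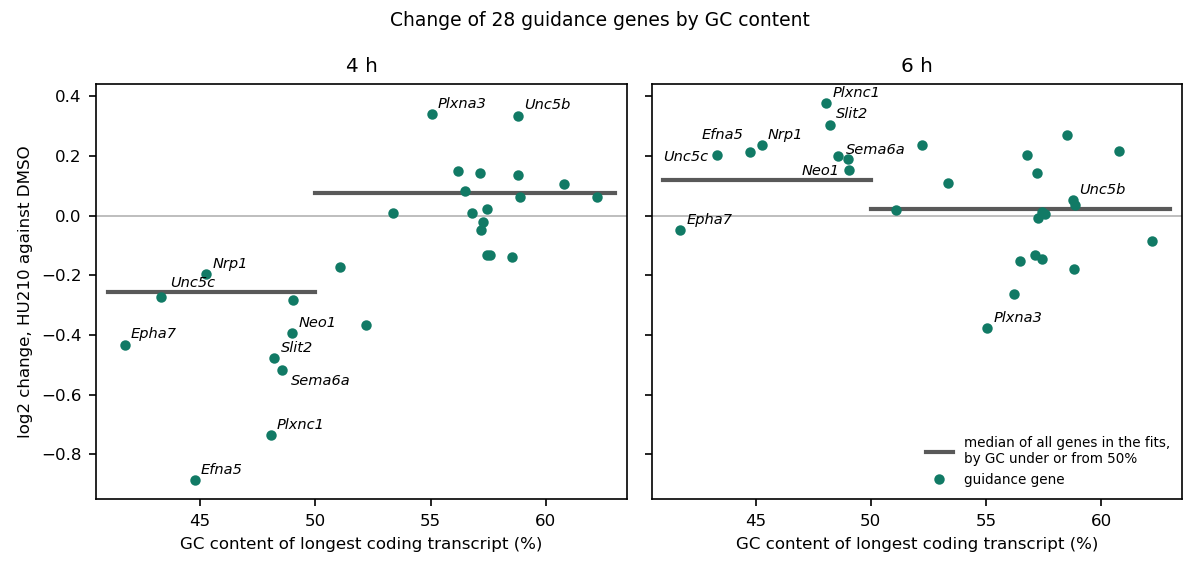
log2 change with HU210 at 4 h (left) and 6 h (right) against the GC content of the longest coding transcript, 1 point for each of 28 guidance genes; horizontal bars are the medians of all genes under 50% and from 50% up. At 4 h the points under 50% lie between -0.89 and -0.20, 8 of 9 of them below the median of all such genes, -0.25, and at 6 h most lie above 0.

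Set against the spread of the 4 DMSO libraries, the change was larger than their range in 4, 12, 7 and 3 of the 28 guidance genes from the first hour to the last. In all genes of the fits this share was 8.84%, 32.9%, 9.65% and 6.88%. The median DMSO range was 0.23 log2 units in the 28 and 0.33 in all genes of the fits, so the guidance genes had a narrower range to exceed. HU210 lay above all 4 DMSO libraries in 4, 4, 9 and 5 of the 28 genes (15.7%, 17.6%, 19.2% and 14.7% of all genes), and below all 4 in 12, 13, 2 and 7 (23.9%, 25.9%, 9.01% and 8.1%). At 2 h, where 12 lay below, the DMSO library was itself the lowest DMSO library in 14 of 28, against 17.3% of all genes. Nrp1 had the narrowest DMSO range, 0.079 on the log2 scale, with 27.8, 27.5, 26.3 and 26.4 FPKM in DMSO and 26.8, 23.9, 31.1 and 23.9 in HU210. Its HU210 libraries thus lay on both sides of a tight control.

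Over the 4 hours together, no guidance gene passed the test of HU210 against DMSO. With limma, treatment fitted beside hour, 0 of 28 guidance genes and 0 of 11311 genes (0.0%) had a Benjamini-Hochberg adjusted p of 0.05 or less, and at an unadjusted p under 0.05 these counts were 0 and 146 (1.29%). The smallest p among guidance genes was that of Unc5b, a repulsive netrin receptor, at 19.5, 18.2, 17.2 and 17.7 FPKM in HU210 and 17.9, 14.2, 16.5 and 15.2 in DMSO. It was higher with HU210 at 4 of 4 hours (3 of 4 with each pair centred), by 0.18 ± 0.080 (SE) on the log2 scale, with a limma adjusted p of 1.0. The groups overlapped. Sema4d was also higher at all 4 hours, by 0.11, 0.01, 0.11 and 0.09. The share of all genes that were higher at all 4 hours was not taken. The error of this test holds true change with hour as well as noise, and a p that misses the threshold does not show that a gene did not change.

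No guidance gene passed the test of later against earlier libraries, and the smallest p-values were those of Sema4d, Sema4b and Efna5. The 4 libraries of 6 h and 8 h were set against the 4 of 2 h and 4 h, with treatment as a covariate. With limma 0 of 11311 genes (0.0%) were called, 810 had an unadjusted p under 0.05 (7.16%), and so did 3 of the 28 guidance genes. Sema4d had 13.9, 12.8, 12.8 and 12.7 FPKM in the earlier libraries (HU210 then DMSO) and 16.7, 16.2, 15.4 and 15.1 in the later ones. Every later library lay above every earlier one, with a log2 difference of 0.26 ± 0.066 (SE) and a limma adjusted p of 0.54. Sema4b, with 6.87, 6.80, 6.97 and 7.07 FPKM earlier and 8.67, 8.61, 7.74 and 7.34 later, did the same by 0.19 ± 0.073 with an adjusted p of 0.66. Efna5 was higher by 0.44 ± 0.17 with an adjusted p of 0.67, and its earlier and later libraries overlapped. Non-overlapping libraries were thus found in 2 of 28 guidance genes, and in 5.44% of all genes. For these genes the two-sided exact permutation test gave p = 0.0286, the smallest it can give with 4 libraries against 4, and no gene passed it after adjustment, with 615 genes at that value.

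Whether the change with HU210 itself differed between the later and the earlier hours was tested on the 4 log2 changes. With limma 0 of 11311 genes (0.0%) were called, although 1915 (16.9%) had an unadjusted p under 0.05, among them 3 of the 28 guidance genes. The change of Plxnc1 was higher at the later hours by 0.67 ± 0.24 (SE), from a mean of -0.43 to one of 0.24, that of Slit2 by 0.52 ± 0.18 and that of Neo1 by 0.45 ± 0.16, each with a limma adjusted p of 0.27. With each library centred on its median, none of these 3 had an unadjusted p under 0.05 in limma. Plxna3 was then the only guidance gene that did, where 13.5% of all genes did. With the trend of GC content and length removed, all 3 did, among 6 of the 28, where 13.1% of all genes did, and 0 were called. The test rests on 4 changes with 2 residual degrees of freedom, so that a missed threshold says little about stability. Without the 2 h pair, Efna5 at 1.02 and Plxnc1 at 0.97 passed the threshold, in a fit with 1 residual degree of freedom that called 960 genes higher and 198 lower. Lower with HU210 at 2 h and 4 h and higher at 6 h and 8 h were 6 of the 28: Efna2, Efna5, Neo1, Plxnc1, Sema4b and Slit2, where 25.1% of all genes were. With each pair centred on its median, Efna5 leaves this set at 2 h and 8 h and Sema4b at 2 h and 4 h. Plxnb2 and Sema4c had the reverse order, as had 5.22% of all genes. The later and earlier hours shared neither libraries nor controls.

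Other genes of the pathway came from lists written from gene families. Of 51 further cues and co-receptors, such as repulsive guidance molecules and their partners, 37 were found, and 0 passed 1.5-fold at 2 h, 4 h and 8 h. At 6 h 1 was lower, Omg, a myelin protein that inhibits axon growth, listed at 0 FPKM in HU210 and 1.20 in DMSO, which is named here after its values were seen. limma called 0 of the 22 that entered the fits in any of the 3 tests, with 0, 3 and 1 at an unadjusted p under 0.05 for treatment, for later against earlier libraries and for the later against the earlier change. Of all genes 1.29%, 7.16% and 16.9% were.

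Among effectors inside the cell, most of the genes past the cutoff were lower at 4 h. Of 80 listed, 76 were found, and 9 were lower and 1 higher past 1.5-fold at 4 h, against 6.46% and 2.16% of all genes. Of genes with at least 1 FPKM in both libraries, 950 of 11177 were lower and 305 higher. The effectors were not counted with this filter. At 6 h 3 of 75 were higher and 1 lower, against 1.58% and 0.837% of all genes. At 2 h 1 of 76 was lower, against 1.33%. The median change of the 67 effectors in the fits was -0.04, -0.17, 0.07 and 0.02 at the 4 hours. Enah, an actin regulator of growth cone filopodia, had 15.5, 12.5, 23.2 and 19.5 FPKM in HU210 and 18.7, 29.8, 13.5 and 16.5 in DMSO. It was the most changed gene of the list, lower at 4 h by -1.19 and higher at 6 h by 0.74, and with the trend of GC content and length removed these changes were -1.15 and 0.69. Rras2, a Ras-family GTPase, was at 6.51 FPKM in HU210 and 14.7 in DMSO at 4 h (-1.06), and the Ras GTPase-activating protein Rasa1 at 21.8 and 44.7 (-1.01). The others lower at 4 h were Sh3bp1, a GTPase-activating protein for Rac (-0.85), the lipid transfer protein Pitpna (-0.80), the Ras exchange factor Sos1 (-0.76), the actin-severing protein Cfl2 (-0.76), the adaptor Nck1 (-0.67) and Rhoa (-0.62), and the higher one was Mical1, an oxidase that disassembles actin (0.64). At 6 h Farp2, an exchange factor downstream of plexin A, was higher at 6.54 FPKM against 3.29 (0.81), as were Enah and Rras2 (0.64), and the myosin Myo10 was lower (-0.60). At 2 h Chn1, a GTPase-activating protein for Rac below EphA4, was lower at 24.4 against 37.7 FPKM (-0.61), and at 8 h none passed. With the trend removed, Sos1 (-0.39), Cfl2 (-0.47), Nck1 (-0.29), Rhoa (-0.43) and Mical1 (0.52) fell short of 1.5-fold at 4 h. So did Rras2 at 6 h (0.50) and Chn1 at 2 h (-0.54), while the other changes named here stayed past it. In every gene named as lower at 4 h, the 4 h DMSO library was the highest of its treatment, and in Mical1 it was the lowest. At 6 h the DMSO library was the lowest of its treatment in Enah, Rras2 and Farp2 and the highest in Myo10. The mean DMSO level was not used as reference for the effectors. limma called 0 of the 67 in any test, with 3, 6 and 13 at an unadjusted p under 0.05, where 1.29%, 7.16% and 16.9% of all genes were. Rhoa, Myo10 and Chn1 lie outside the 10 most changed and are named after their values were seen.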

How the data were processed

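The 8 mRNA libraries of N2A cells were processed by the authors with bowtie 2.1.0 under TopHat 2.0.8, together with samtools 0.1.7, on mm9 with Ensembl gene models, and quantified with Cufflinks and Cuffdiff, whose version is not given in the sources used here. The authors corrected for fragment bias and for reads with several hits and deposited upper-quartile normalized FPKM with 1 added, which was subtracted here. The deposited table also holds the authors' log2 ratio, p-value and adjusted p of each pair, and a second table holds their list of DEGs; none of these was used. Quantification splits reads among related genes by model, so low paralogs are uncertain.

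Symbols were matched to the family names, and the members, the gene lists and the tests were chosen with earlier results of these data known. The genes given library by library are those with a mean FPKM of at least 1 or past 1.5-fold at any hour. Those below 1 FPKM are given by range or mean, with examples named after their values were seen. Of the lists, genes named are the 10 most changed of each list, if both libraries of the pair reached 1 FPKM. Fits used limma 3.58.1 in R 4.3.3 on log2(FPKM + 1) over genes listed in all 8 libraries with a mean of at least 1 FPKM, with Benjamini-Hochberg adjustment over all of them; fold changes on this scale understate changes of low genes. The fits were tested on simulated data with independent noise and no change between hours beyond the shift put in. Of genes shifted by 1 log2 unit, the treatment fit called 79% and the later against earlier fit 95%. The fit of the later against the earlier change called 1%. With a shift of 2 log2 units these shares were 94%, 100% and 56%. Exact tests used scipy 1.17.1. GC content and positions came from GENCODE vM1, which is on mm9, with GC for 10590 of 11311 fitted genes. The trend with GC content and length was removed by loess (span 0.3, degree 1). The alternatives were a pseudocount of 0.1, a 1.3-fold cutoff, a minimum FPKM of 1 in both libraries, centring on the median, the mean DMSO library as reference, no filter, no hour term and leaving out each hour. The count of FPKM columns without a sample was 0.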

Additional observations from a re-analysis of the deposited data

Results flagged for a closer look

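In 8 of the 28 guidance genes, both earlier pairs (2 h and 4 h) changed one way with HU210 and both later pairs (6 h and 8 h) the opposite way. The change at the later hours minus that at the earlier hours, on the log2 scale, was 0.67 for Plxnc1, 0.59 for Efna5, 0.52 for Slit2, 0.45 for Neo1, 0.34 for Efna2 and 0.21 for Sema4b, all lower with HU210 first and higher afterwards. It was -0.17 for Plxnb2 and -0.18 for Sema4c, which had the reverse order. limma's test of this difference gave adjusted p-values of 0.27 for Plxnc1, Slit2 and Neo1, 0.31 for Efna2, 0.35 for Efna5, 0.46 for Sema4b, 0.51 for Sema4c and 0.54 for Plxnb2, so that none passed in a fit with 2 residual degrees of freedom. The first order was held by 25.1% of all genes and the second by 5.22%. Each hour is 1 pair of libraries. In simulated data this fit called 1% of genes given a log2 shift of 1, so a missed threshold says little here.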

How the results depend on the processing

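Each pair is 1 library against 1, so a change at a single hour has no replicate check, and no counting error is given for an FPKM. The treatment estimates of Efna5 (-0.16) and Plxnc1 (-0.10), neither of them called, turned to 0.08 and 0.12 without 4 h. With a pseudocount of 0.1, 4 of 60, 6 of 60, 1 of 60 and 3 of 59 guidance genes passed the cutoff, from the first hour to the last. At 4 h this added Efna4, Epha7, Sema4f and Sema6a. Of all genes, 374 were then higher and 575 lower of 16499 at 2 h, and 778 and 1730 of 16557 at 4 h. At 6 h these counts were 667 and 523 of 16372, and at 8 h 632 and 356 of 16385. At 4 h it was 6 at 1.3-fold, 1 against the mean DMSO library and 1 with the GC and length trend removed (Efna5 in both), and at 8 h it was 0 against the mean DMSO library. The median log2 change of all listed guidance genes, in the order of the hours, was 0, 0.0044, 0.0067 and 0. It was -0.045, -0.049, 0.081 and -0.017 with genes under 1 FPKM in either library left out; 0.051, 0.085, -0.056 and -0.044 with each pair centred on its median; -0.012, -0.0052, 0.0017 and -0.0013 against the mean DMSO library; and -0.025, -0.040, 0.056 and -0.043 with the trend removed. With a pseudocount of 0.1 it was 0.010 at 4 h and 0.017 at 6 h. Its sign thus depended on the filter or the centring at 2 h, 4 h and 6 h. Leaving out 1 hour at a time, the later against earlier HU210 change called 0 to 2 guidance genes, 2 without 2 h; the causes were not tested. The treatment and later against earlier fits called 0 guidance genes under every alternative. Hour already paired the libraries, and without the hour term 0 guidance genes were called. Exact tests could not pass in 4 pairs (smallest p 0.125) or 2 against 2 changes (0.333), so none is given.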
